A study of Mus musculus with 28 samples.

Results

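The 6 livers hybridized at 1.5X cDNA input to one-colour arrays, 3 from mice given phenobarbital and 3 from controls, form the comparison described here. They were chosen by their labels (one-colour, 1.5X input) and are 6 of the 28 arrays of the series. All mice were male B6C3F1 hybrids, and the labels give an age of 42 days without saying at which point of the experiment. The phenobarbital mice drank water with 0.05% phenobarbital for about 4 weeks, and the control mice drank water alone. Every liver, exposed or control, had been kept as a formalin-fixed, paraffin-embedded block for 16 years. Its RNA was isolated with a kit for fixed tissue, copied and amplified as cDNA by whole-transcriptome amplification (WTA2), and labelled chemically with the dye Cy3 (KREAtech ULS). The input of 1.5X is relative to a cDNA amount of 1X, at which the same 6 livers were hybridized on another slide. Each mouse gave 1 array, all 6 lay on 1 slide, and the mouse was the replicate (n = 3 per group). The series addresses the preparation of archived tissue for such arrays, and phenobarbital serves as an exposure whose liver response is well known. Whole liver was used, so fewer cells of a type and less RNA per cell cannot be told apart in any value below.

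Phenobarbital is a barbiturate that switches on the constitutive androstane receptor (CAR, gene Nr1i3) in hepatocytes. Active CAR enters the nucleus with its partner RXR and raises cytochrome P450 genes of the CYP2B, CYP2C and CYP3A families, the P450 reductase that feeds them electrons, and conjugating enzymes such as glutathione transferases. In rodents the drug also enlarges the liver and makes hepatocytes enter the cell cycle in the first days of exposure, and long exposure promotes liver tumours.

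The array held 55681 distinct probes other than controls. Of these, 16755 were called well above background by the scanner software in all 3 mice of 1 group or of both, and were tested. Signals are given on a log2 scale relative to each array's 75th percentile, so that 0 is the level of a fairly bright probe and negative values are dimmer. A probe passed when its limma p, adjusted by Benjamini-Hochberg over all tested probes, was under 0.05. By this rule 39 probes rose (0.233% of those tested) and 5 fell (0.0298%). All 44 had no overlap between the 3 mice of each group, and their sizes began at 1.29 on the log2 scale. Lack of overlap was common with or without passing. Among probes well above background on all 6 arrays, 9.09% were higher and 10.9% lower without overlap. Of the tested probes 13867 were well above background on all 6 arrays, 679 entered through the exposed mice alone and 2209 through the controls alone, in each case the group where they are high. Among the 13867, 242 lay over 1 higher and 110 over 1 lower on the log2 scale, with or without passing. Of all tested probes 2456 had an unadjusted p under 0.05. The median difference over all tested probes was -0.03. Of the raised probes, 28 carried a gene symbol, for 24 genes, and of the lowered probes 2 did.

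The number that passed changed when 1 mouse was left out, a setting that also leaves fewer mice to test with. It was 13 without control mouse 1, 10 without control mouse 2 and 28 without control mouse 3. It was 132 without phenobarbital mouse 1, of which 66 were higher and 66 lower, 15 without phenobarbital mouse 2 and 7 without phenobarbital mouse 3. Background correction by normexp with quantile normalization gave 185 probes, 141 higher and 44 lower, so that the share of higher probes was 76.2% in place of 88.6%. With the row of the slide as a block 16 probes passed, all of them higher and all among the 44. The 7 probes that passed whichever mouse was left out were those of Cyp2b10, Cyp2c55, Blm, Gstt3, both probes of Gstm3, and a probe listed only as NP065022.

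**Figure D1:**
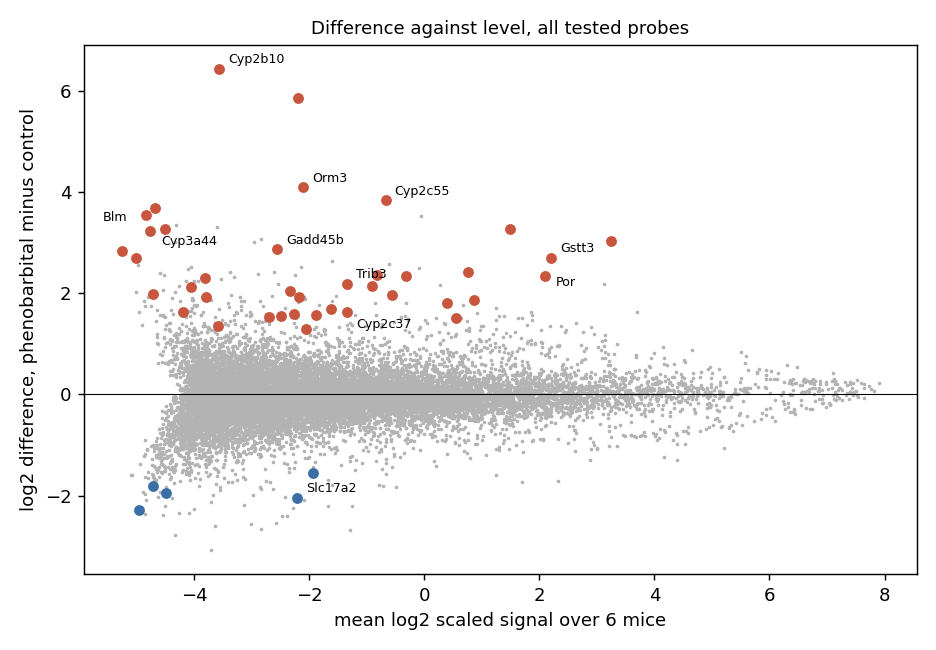
The plot sets the log2 difference, phenobarbital minus control, against the mean log2 scaled signal for each of the 16755 tested probes (n = 3 mice per group). Red points are the 39 probes that rose, blue points the 5 that fell and grey points those that did not pass, and the raised probes lie at mean levels from -5.26 to 3.24, while tested probes reach 7.90.

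P450 genes made up 7 of the 24 raised genes. Cyp2b10, the mouse P450 used most often as a readout of CAR, was not well above background in any control mouse and was bright in all 3 exposed mice. Its levels were -6.98, -6.72 and -6.65 in control mice 1, 2 and 3 and 0.11, -0.19 and -0.95 in phenobarbital mice 1, 2 and 3, the order used throughout. The groups lay far apart, and with each control set to the dimmest signal that its array still called above background, the rise was at least 18.0-fold (fitted log2 difference 6.44 ± 0.29, SE, n = 3 per group, adjusted p 0.00107). A fold given as "at least" is computed this way here, because a signal under the background call has no measured level. An adjusted p beside such a fold is that of the fit to the signals as scaled, not of the bound. Cyp2b9 and Cyp2b13, the closest relatives of Cyp2b10, were not tested: Cyp2b9 was well above background in 1 exposed mouse and Cyp2b13 in none.

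Cyp2c55, a P450 that hydroxylates fatty acids, was dim but measured in controls, at -2.88, -2.67 and -2.24, and reached 1.62, 1.12 and 0.99 with phenobarbital. The rise was 14.3-fold (log2 3.84 ± 0.25, SE, n = 3 per group, adjusted p 0.00365). Within the slide's first row, with 1 mouse per group, the Cyp2c55 difference was 3.79, and within its second row, with 2 per group, it was 3.87. Cyp2c54 had 3 probes, and all of them rose, by 2.43, 2.37 and 2.34 on the log2 scale. Its brightest probe stood at -0.24, -0.37 and -0.77 in controls and 2.09, 1.81 and 2.02 in exposed mice, whose spread was narrower than that of the controls. Cyp2c50 went from 0.06, 0.04 and -0.28 to 1.70, 1.84 and 1.85 (log2 1.86 ± 0.17, adjusted p 0.0119). Both probes of Cyp2c37 rose, by 1.63 and 1.56. Cyp2c39 rose by 1.93 (adjusted p 0.0259) and was well above background in only 1 control mouse. Cyp2c37, Cyp2c50 and Cyp2c54 are close copies of one another, so a probe of one can bind RNA of another, and the split among the 3 is uncertain.

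Cyp3a44, a CYP3A gene that in untreated mice is expressed mainly in females, was not well above background in these male controls, at -7.00, -5.77 and -6.41. In exposed mice it was measured at -2.98, -2.95 and -3.53, at least 2.57-fold higher (adjusted p 0.0223). The CYP3A genes are close paralogs, so this probe may also read its neighbours in the family. Cyp3a11, the main CYP3A gene of adult mouse liver, was well above background in all controls, at 3.81, 3.73 and 3.52, and stood at 4.49, 4.70 and 4.66 with phenobarbital. Its groups did not overlap, and its log2 difference of 0.93 ± 0.17 did not pass (adjusted p 0.0844).

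Over the whole list of CYP2A, CYP2B, CYP2C and CYP3A genes, 24 of 33 were tested and 7 rose, against 0.233% of all tested probes. Of the 24, 5 entered the test through the exposed mice alone, where they were high. Among the 19 measured on all 6 arrays, 14 were higher in every exposed mouse than in any control, a share to be set against 9.09% of all probes measured on all 6 arrays, and 1 was lower (10.9% of all probes). Their median log2 difference was 1.51, against -0.01 over all probes measured on all 6 arrays. The median of the list in each mouse, relative to the control mean of each gene, was 0.09, 0.05 and -0.21 in controls and 1.47, 1.40 and 1.42 in exposed mice, so the 3 exposed livers were much alike. Members with large differences that did not pass were Cyp2a4 at 1.76 ± 0.24 (adjusted p 0.0528), Cyp2c38 at 1.71 ± 0.25 (0.0581) and Cyp2c29 at 1.30 ± 0.26 (0.113). Not every relative was higher: Cyp2c70 differed by -0.25, Cyp2c68 by -0.52 and Cyp2c67, which was lower in every exposed mouse, by -0.68, and none of these passed. Among 28 tested genes of the other P450 families none passed in either direction, and the list's median was -0.06. Cyp1a2 differed by 0.61 ± 0.18 (adjusted p 0.229), and Cyp7a1, the rate-limiting enzyme of bile acid synthesis, varied from -3.68 to -1.50 among exposed mice.

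**Figure D2:**
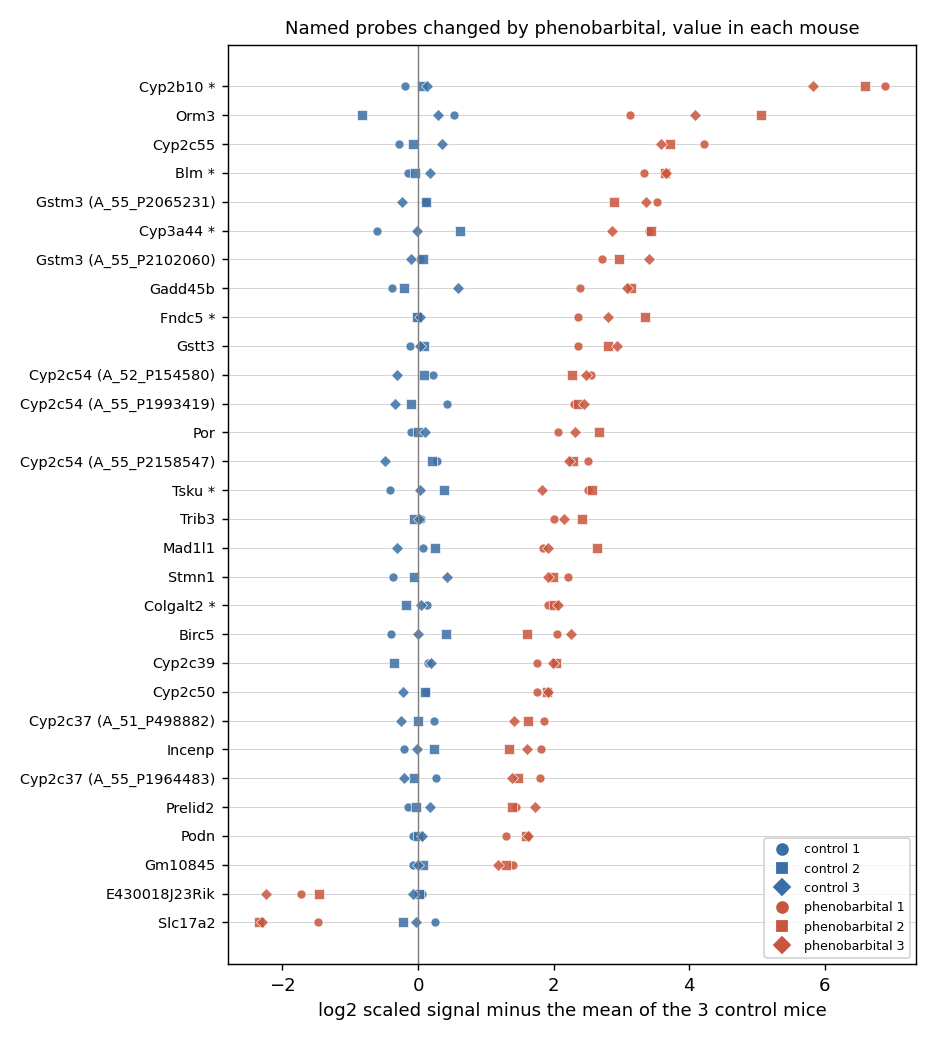
Each point is 1 mouse, and the horizontal axis is the log2 scaled signal of a probe minus the mean of the 3 control mice, for the 30 probes with a gene symbol that passed. An asterisk marks probes that were well above background in no control mouse; the controls (blue) cluster near 0 and the exposed mice (red) lie apart from them in all 30.

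The start sites of the raised P450 genes were laid beside each other to show how similar the genes are there. RefSeq windows of assembly GRCm38.p6, from 250 bases before to 50 after the start, were given for 18 of the 24 raised genes, as 23 windows. Cyp2b10 and Cyp2c55 are shown as the P450s that rose most among those with a window, and Cyp2c37 and Cyp2c50 as close copies with smaller differences. Sequences run 5′ to 3′ along the gene, and capitals mark matches on either strand to AGGTCA or AGTTCA (half-sites that CAR and RXR can bind), to CCAAT or TATAAA (common promoter elements), or to TTTGAA. The letters are those of the reference strain, not of these hybrid mice.
Cyp2b10, chr7:25897408-25897707 (+): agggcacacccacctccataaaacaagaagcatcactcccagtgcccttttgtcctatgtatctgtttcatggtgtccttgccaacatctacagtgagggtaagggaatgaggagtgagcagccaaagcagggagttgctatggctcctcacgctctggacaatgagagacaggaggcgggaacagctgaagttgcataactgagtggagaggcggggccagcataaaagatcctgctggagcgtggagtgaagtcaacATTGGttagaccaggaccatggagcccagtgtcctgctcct
Cyp2c55, chr19:39006769-39007068 (+): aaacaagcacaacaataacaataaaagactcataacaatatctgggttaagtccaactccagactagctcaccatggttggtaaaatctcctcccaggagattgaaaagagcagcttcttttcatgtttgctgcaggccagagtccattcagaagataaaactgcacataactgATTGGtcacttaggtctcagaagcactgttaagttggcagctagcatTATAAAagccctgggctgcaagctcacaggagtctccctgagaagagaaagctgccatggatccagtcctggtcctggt
Cyp2c37, chr19:39992174-39992473 (+): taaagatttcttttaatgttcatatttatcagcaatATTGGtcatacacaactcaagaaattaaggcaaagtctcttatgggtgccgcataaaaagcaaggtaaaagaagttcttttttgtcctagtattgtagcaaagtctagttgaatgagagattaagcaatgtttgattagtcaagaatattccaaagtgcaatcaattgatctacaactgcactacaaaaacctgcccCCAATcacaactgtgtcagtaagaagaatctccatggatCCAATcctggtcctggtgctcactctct
Cyp2c50, chr19:40089429-40089728 (+): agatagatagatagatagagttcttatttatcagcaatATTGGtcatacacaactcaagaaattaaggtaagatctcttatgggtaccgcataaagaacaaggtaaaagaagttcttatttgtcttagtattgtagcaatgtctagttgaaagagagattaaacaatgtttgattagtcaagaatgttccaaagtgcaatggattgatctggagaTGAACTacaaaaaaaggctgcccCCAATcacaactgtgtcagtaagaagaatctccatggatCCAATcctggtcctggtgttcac
The windows of Cyp2c37 and Cyp2c50 were the same at 264 of 295 aligned bases (89.5%), and each shared 62.6% to 63.4% of its aligned bases with Cyp2c55. Among these 4, AGTTCA was found only in Cyp2c50, as TGAACT on the other strand, 35 bases before the start, and TATAAA only in Cyp2c55, 29 bases before the start. Over all raised genes, AGGTCA lay in 3 of 23 windows (13.0%) against 16.3% of all 32851 windows. AGTTCA lay in 2 of 23 windows (8.70%) against 14.0% of all 32851, CCAAT in 8 of 23 windows (34.8%) against 37.4% of all 32851, TTTGAA in 2 of 23 windows (8.70%) against 17.9% of all 32851 and TATAAA in 6 of 23 windows (26.1%) against 13.6% of all 32851. A direct repeat of these half-sites with 4 bases between them, the arrangement CAR is known to use, was in none of the 23 and in 0.0274% of all windows, and TGATGCAA in none and in 0.895%. That says only that these letters are not in these windows; the enhancer through which CAR raises Cyp2b10 lies further upstream.

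Of the genes that supply P450s with electrons and heme, 1 rose. Por, the reductase that passes electrons to every microsomal P450, stood at 0.81, 0.92 and 1.02 in controls and 2.99, 3.58 and 3.23 in exposed mice, a 5.10-fold rise (log2 2.35 ± 0.20, adjusted p 0.00815). Alas1, which makes the first precursor of heme, had a difference of similar size, 2.16 ± 0.50, that did not pass (adjusted p 0.151). Its controls alone spanned -0.87, -1.85 and 0.29, while its exposed mice lay at 1.08, 1.72 and 1.23. Among 17 tested genes of electron transfer and heme synthesis Por alone passed, and the list's median was 0.05, which turned to -0.09 without scaling between arrays and to -0.01 with normexp and quantile normalization. Of the receptors, Nr1i3 (CAR) differed by 0.12 ± 0.20, which turned to -0.013 without scaling, and Nr1i2 (PXR, the other main drug-sensing receptor) by 0.79 ± 0.23 (adjusted p 0.808 and 0.223). None of 20 tested receptors and partners passed.

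Among conjugating enzymes, 2 glutathione transferases rose strongly. Gstm3, which joins glutathione to electrophiles, had 2 probes that both rose, and the brighter one stood at 1.75, 1.80 and 1.63 in controls and 4.44, 4.70 and 5.14 in exposed mice (8.16-fold, log2 3.03 ± 0.21, adjusted p 0.00451). Gstt3, of the theta class, went from 0.74, 0.94 and 0.89 to 3.23, 3.66 and 3.80 (6.50-fold, log2 2.70 ± 0.20, adjusted p 0.00526). Both were among the bright probes, and the gap between their groups was wider than the range within either group. Of 20 tested transferases only these 2 passed, against 0.233% of all tested probes that rose. Among the 19 measured on all 6 arrays, 9 were higher in every exposed mouse (9.09% of all probes) and the median difference was 0.46. Gstm4 at 1.28 ± 0.19 (adjusted p 0.0608) and Gstm2 at 1.08 ± 0.19 (0.0773) came next. None of 18 glucuronosyl- and sulfotransferases passed, with a median of 0.36 and 10 higher in every exposed mouse (9.09% of all probes). Sult1d1 differed by 1.16 ± 0.17 (adjusted p 0.0608) and Ugt2b34 by 1.01 ± 0.17 (0.0764). Ephx1 (microsomal epoxide hydrolase) at 1.08 ± 0.29 and Aldh1a1 (a retinaldehyde dehydrogenase) at 1.00 ± 0.18 did not pass (adjusted p 0.194 and 0.0846), as did none of 40 tested genes of non-P450 oxidation and hydrolysis. None of 16 tested transporters passed. Of these, Abcc3, an efflux pump for conjugates, differed by 1.04 ± 0.22 (adjusted p 0.128).

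Of the genes of growth arrest and DNA repair, 2 rose. Gadd45b, an early CAR-responsive gene of growth arrest and stress signalling, stood at -4.37, -4.20 and -3.40 in controls and -1.60, -0.85 and -0.90 in exposed mice (7.32-fold, log2 2.87 ± 0.32, adjusted p 0.0326). Blm, the helicase mutated in Bloom syndrome, was not well above background in any control, at -6.76, -6.65 and -6.43, and was measured at -3.28, -2.97 and -2.96 in exposed mice. It rose at least 2.72-fold, with an adjusted p of 0.00117, and its exposed mice differed by only 0.18 (SD). Of 15 tested members of the list these 2 passed, against 0.233% of all tested probes that rose. Blm had entered the test through the exposed mice alone, where it is high, and 4 others through the control mice alone. The median over the 10 measured on all arrays was 0.43. Trib3, a pseudokinase of the stress response, rose 4.56-fold, from -2.40, -2.50 and -2.42 to -0.43, -0.02 and -0.29 (log2 2.19 ± 0.17, adjusted p 0.00669). The ATF4 and endoplasmic reticulum stress list to which it belongs had a median of 0.03 over 20 genes, which turned to -0.11 without scaling, and no other of its 24 tested members passed.

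The mitosis list had the largest median of all lists, and 1 of its genes rose. Birc5 (survivin, of the chromosomal passenger complex) rose from -1.95, -1.15 and -1.56 to 0.50, 0.06 and 0.70 (log2 1.97 ± 0.27, adjusted p 0.0496), and its other tested probe differed by 2.36 and did not pass (0.0764). The Birc5 probe that passed did so in none of the fits that left out 1 mouse. No other of the 10 tested mitosis genes passed, of 38 listed, and 3 of the 10 had been tested through the exposed mice alone. The 7 measured on all 6 arrays had a median difference of 1.86, and 5 of them were higher in every exposed mouse (9.09% of all probes). Mad2l1, a spindle checkpoint protein, was lower in every exposed mouse, by -0.27, and did not pass (adjusted p 0.461). In each mouse the list's median was -0.40, 0.13 and 0.06 in controls and 2.05, 1.37 and 2.12 in exposed mice. Cdc20, which activates the anaphase-promoting complex, stood at -4.83, -3.60 and -4.71 and -0.61, -1.92 and -1.41 without overlap. Only 1 of its controls was well above background, and its fitted difference of 3.07 ± 0.43 did not pass (adjusted p 0.0567). Ccnb1 (cyclin B1) at 2.38 ± 0.37 and Ube2c at 2.42 ± 0.44 did not pass either (0.0664 and 0.0868). Outside the list, Mad1l1 (spindle checkpoint) rose by 2.14 and Stmn1 (stathmin, a microtubule destabilizer) by 2.04. Incenp, the scaffold of the passenger complex, rose by 1.59, and its second tested probe differed by 1.97 and did not pass (adjusted p 0.0506). The Incenp probe that passed likewise did so in none of the fits that left out 1 mouse.

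Of 19 tested replication genes none passed. Of the 17 measured on all 6 arrays 11 were higher in every exposed mouse (9.09% of all probes), and their median was 0.61. In single mice that median was 1.03, 0.60 and 0.58 for phenobarbital, so exposed mouse 1 stood above the other two. Mcm6, a subunit of the replicative helicase, differed by 1.47 ± 0.22 (adjusted p 0.0608). Mcm10 was lower in every exposed mouse, by -1.58 ± 0.31, and did not pass (0.102). Ccnd1 (cyclin D1, the G1 cyclin) stood at -3.04, -2.99 and -3.03 in controls and -1.73, -1.96 and -2.54 in exposed mice, and its difference of 0.94 ± 0.23 did not pass (0.168).

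**Figure D3:**
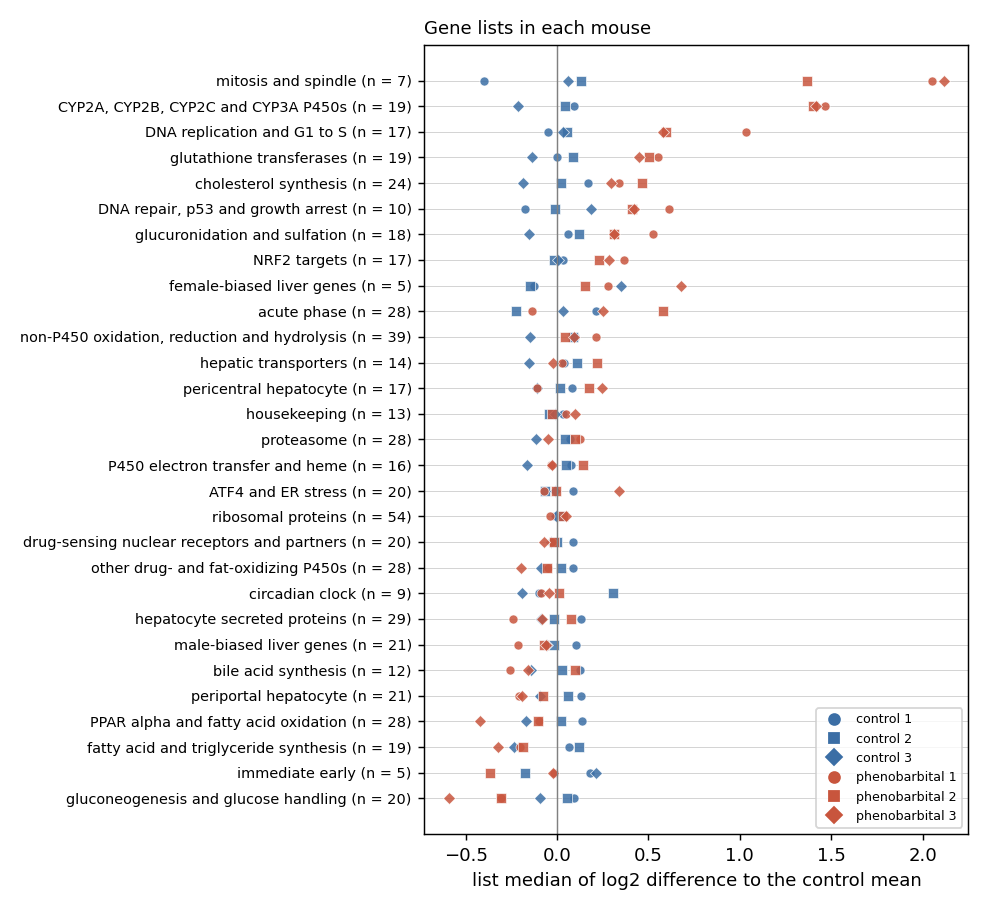
Each row is a gene list with at least 5 members measured on all 6 arrays (n in brackets), and each point is 1 mouse. The horizontal axis is the median over the list of the log2 scaled signal minus the control mean of each gene. The mitosis list and the CYP2A to CYP3A list stand apart in all 3 exposed mice, and the ribosomal protein and housekeeping lists lie near 0 in all 6.

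Of the acute-phase genes 1 rose. Orm3, an orosomucoid secreted by hepatocytes in inflammation, stood at -3.63, -4.99 and -3.86 in controls and -1.03, 0.91 and -0.07 in exposed mice, with exposed mouse 2 the highest and mouse 1 the lowest among the exposed. It passed (adjusted p 0.0479), with a fitted log2 difference of 4.10 ± 0.54 that rests in part on 1 control under the background call. The 3 orosomucoid genes are close copies, so the probe may read more than one. No other of the 29 tested acute-phase genes passed. The largest others were Lcn2 (lipocalin 2) at 3.53 ± 0.60 (adjusted p 0.0770), Orm2 at 2.57 ± 0.48 (0.0927) and Saa1 at 2.29 ± 0.75 (0.253). The list's median in each mouse was 0.22, -0.22 and 0.03 in controls and -0.14, 0.58 and 0.25 in exposed mice, so that exposed mouse 1 lay inside the control range and the groups overlapped.

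Lipid and glucose genes did not pass in either direction, and their lists differed in sign. Among 25 tested genes of cholesterol synthesis the median was 0.43 over the 24 measured on all arrays, of which 11 were higher in every exposed mouse (9.09% of all probes). Hmgcs1, which makes HMG-CoA, differed by 0.97 ± 0.16 (adjusted p 0.0764) and Sqle (squalene epoxidase) by 0.93 ± 0.22 (0.148). For fatty acid and triglyceride synthesis the median was -0.27, with 5 of 19 lower in every exposed mouse (10.9% of all probes). Examples were Acly (ATP citrate lyase) at -0.98 ± 0.23 and Scd1 (stearoyl-CoA desaturase) at -0.92 ± 0.32 (adjusted p 0.146 and 0.279). For PPAR alpha targets and fatty acid oxidation the median was -0.25, with 7 of 28 lower in every exposed mouse (10.9%), among them Acot1 at -1.07 ± 0.23 (0.131). Gluconeogenesis and glucose handling had a median of -0.41, with 8 of 20 lower in every exposed mouse, against 10.9% of all probes. Igfbp1 differed by -1.20 ± 0.54 and Pck1, the gatekeeper enzyme of gluconeogenesis, by -0.80 ± 0.41 (adjusted p 0.365 and 0.411), and both overlapped between groups. None of 18 tested NRF2 targets passed; the median was 0.30, and Srxn1 (sulfiredoxin) differed by 0.99 ± 0.15 (adjusted p 0.0608). Ribosomal protein genes, 54 of 54 tested, had a median of 0.00 and housekeeping genes one of 0.05, which turned to -0.14 and -0.09 without scaling. That setting moved the median of all tested probes to -0.17.

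The remaining raised genes belonged to none of these groups. Fndc5, the precursor of irisin, was measured only in exposed mice and rose at least 1.60-fold (adjusted p 0.0119). Tsku (tsukushi, a secreted leucine-rich protein) rose at least 3.62-fold (0.0385), and Colgalt2, a collagen galactosyltransferase, at least 1.73-fold (0.00702). Fndc5, Tsku and Colgalt2 entered the test through the exposed mice alone, where they are high. Under the alternatives of the closing section their limma adjusted p reached 0.303, 0.163 and 0.0984. Another 3 raised genes and Incenp lay outside the rule for naming and were added after their values were seen. Of these 3, Prelid2 rose by 1.52 and Podn (podocan) by 1.50, while Gm10845 rose by 1.29 on 1 of its 3 tested probes. Its other 2 differed by 0.35 and 0.59.

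Probes without a symbol held 11 of the 39 raised and 3 of the 5 lowered. Of the 16755 tested probes, 10668 carried a symbol, so many tested probes had none. A_55_P2071906, for which the files name no gene, stood at -4.39, -6.28 and -4.71 in controls and 0.84, 0.56 and 0.78 in exposed mice and passed (adjusted p 0.00669). It was well above background in only 1 control mouse, so its difference has no measured size. The transcript listed as NP065022 was in no control well above background and rose at least 3.18-fold (0.00117). ENSMUST00000103383 likewise rose at least 3.11-fold (0.0331).

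The array also carries 16194 probes named only by a genomic interval, in coordinates of build mm9, of which 3118 were tested. Of the 3118, 3 rose and 3 fell, beside 0.233% and 0.0298% of all tested probes. Of the 10 probes on chr4:109071198-109078776, all on the F strand, 5 were tested and 2 of them rose. Neither of these 2 passed in any of the fits that left out 1 mouse. Of the 5, 4 entered the test through the exposed mice alone, where they are high. The 1 measured on all 6 arrays rose by 1.36 (adjusted p 0.0385). On chr17:33995525-34028025 there were 18 probes, of which 4 were tested and 1 rose, at least 1.81-fold (0.0331). These intervals were picked because a probe in them had passed.

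Lowered genes were few. Slc17a2, of the type I sodium-phosphate cotransporters, stood at -0.95, -1.42 and -1.23 in controls and -2.68, -3.54 and -3.50 in exposed mice (log2 -2.04 ± 0.27, adjusted p 0.0496). Its second probe differed by -1.25 and did not pass (0.217). E430018J23Rik fell from -3.76, -3.79 and -3.89 to a level under the background call in all exposed mice, at least 1.52-fold lower (0.0385). It passed in none of the fits that left out 1 mouse. At 1X input the same livers did not show this fall, with a log2 difference of -0.02 ± 0.21 (limma adjusted p 0.986).

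The other 3 lowered probes lay in 1 interval, chr8:26343277-26352902 (mm9), which is 9626 bases long. It held 16 probes on both strands, and 12 were tested. Of the 12, 8 entered the test through the controls alone, where they are high. The 4 measured on all 6 arrays, all on the R strand, had log2 differences from -1.35 to -1.56. The brightest that passed, on its R strand at chr8:26345571-26346095, stood at -1.22, -1.19 and -1.06 in controls and -2.41, -2.87 and -2.87 in exposed mice (log2 -1.56 ± 0.19, adjusted p 0.0363). On the F strand a probe fell from -4.01, -3.74 and -3.70 to below the background call, at least 1.51-fold (0.0344). Probes of 1 interval can share RNA, so they do not count as independent.

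Next to the threshold among lower genes, with the smallest p but not passing, were Rbms1 (adjusted p 0.0608), Csad (0.0636), which makes taurine from cysteine, and Kidins220 (0.0642). Pam, Hao1, Itsn1, Rflna, Lcmt1, Hyal1 and Acox3 followed, with adjusted p from 0.0667 to 0.0764. Of these 10, 4 were measured on all 6 arrays: Pam differed by -1.37, Hao1 (peroxisomal glycolate oxidase) by -1.05, Hyal1 (a lysosomal hyaluronidase) by -1.54 and Acox3 (a peroxisomal acyl-CoA oxidase) by -1.22. The other 6 entered the test through the controls alone, where they are high. Kidins220 and Lcmt1 were under the background call in all exposed mice, at least 1.92-fold and 1.47-fold lower.

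Some probes were measured in 1 group only: 69 were well above background in all exposed mice and in no control, and 49 the reverse. Of the 69, 11 passed as higher, and of the 49, 3 passed as lower, against 0.233% and 0.0298% of all tested probes. Both sets entered the test only through the group where they are high, so these counts are no support for a change. The 10 brightest were all on the exposed side. After Cyp2b10 came ENSMUST00000103528 (at least 5.81-fold) and ENSMUST00000137157 (at least 3.66-fold), neither of which passed. Cdca3, a trigger of mitotic entry, was at least 3.21-fold higher, and Cenpe, a kinesin of the kinetochore, at least 3.12-fold, and they did not pass either (adjusted p 0.102 and 0.0840). Jakmip1 was at least 2.94-fold higher and an interval probe on chr7:82902248-82955248 at least 3.30-fold, and neither passed (0.193 and 0.159).

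The arrays themselves differed in what they could show. Between 28.1% and 38.5% of probes were well above background, 33.4% ± 1.41 (SD, n = 3) in controls and 32.5% ± 5.43 (SD, n = 3) in exposed mice (two-sided exact permutation p = 0.8, where 3 against 3 cannot go below 0.1). Exposed mouse 1 had the highest share and exposed mouse 3 the lowest. The SD of a probe's difference from the other 2 mice of its group was also widest in exposed mouse 1, at 0.46, against 0.35 to 0.44 in the other 5. The median SD within groups fell from 0.44 among the 4189 dimmest tested probes to 0.18 among the 4189 brightest. The number of arrays limits all of these values.

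Hepatocyte markers were bright, with all 12 tested and none passing. Their median difference was -0.17, and 3 of the 12 were lower in every exposed mouse (10.9% of all probes). Summed as a multiple of each array's 75th percentile, they reached 454 to 506 in controls and 372 to 531 in exposed mice. Exposed mouse 1 had the lowest sum. Pancreas markers, of which 17 of 19 were tested and all but 1 were well above background somewhere, varied most. Their summed signal, as a multiple of each array's 75th percentile, was 152 to 572 in controls and 97.9 to 601 in exposed mice, highest in mouse 3 of each group. Their part in the results was not tested. Of endothelial markers 11 of 13 were tested and none passed, Cdh5 was not well above background on any array, and the sum was 4.03 to 4.68 in controls and 3.04 to 3.85 in exposed mice, without overlap. Kupffer cell and macrophage markers, 9 of 13 tested with none passing and Timd4 well above background on no array, summed to 3.46 to 4.46 in controls and 4.41 to 5.71 in exposed mice. Their sum was lowest in control mouse 2 and highest in exposed mouse 2, as was the median of the acute-phase list, and their part in the acute-phase values was not tested. Of 11 neutrophil markers 6, with S100a8, Mpo and Elane among them, were well above background on no array. The neutrophil sums overlapped and were likewise lowest in control mouse 2 and highest in exposed mouse 2 (1.95 to 2.24 and 2.17 to 2.61). Lymphocyte markers overlapped as well (0.679 to 1.14 and 0.968 to 1.51), and 8 of 15 were on no array well above background.

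The same 6 livers at 1X input gave a second reading of each gene, though not an independent one. Input and slide cannot be told apart in this contrast. The difference between the exposure effects at 1.5X and at 1X was tested within mice. For 16420 probes tested in both, none passed in limma, 934 had an unadjusted p under 0.05, and the smallest adjusted p was 0.160. Cyp2c55 differed by 3.84 ± 0.25 at 1.5X and 3.61 ± 0.28 at 1X, and Por by 2.35 ± 0.20 and 2.44 ± 0.20. The effects of both at 1.5X minus those at 1X were 0.23 ± 0.23 and -0.09 ± 0.18 (SE), and neither passed. Gadd45b differed by 2.87 ± 0.32 and 1.79 ± 0.26 (difference 1.08 ± 0.32, adjusted p 0.794). Nr1i3 had opposite signs, 0.12 ± 0.20 and -0.66 ± 0.27, and the difference did not pass (0.794). Among the 5 probes with the smallest p, XM_003084505 was the only one measured on all 6 arrays at 1.5X, and it differed by 1.70 ± 0.20 and 0.35 ± 0.18 (adjusted p 0.749). The other 4, Blm and E430018J23Rik among them, were under the background call in at least 1 mouse at 1.5X. No size of the difference between inputs is given for them, nor for Cyp2b10 and Cyp3a44, whose controls at 1.5X had no measured level.

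**Figure D4:**
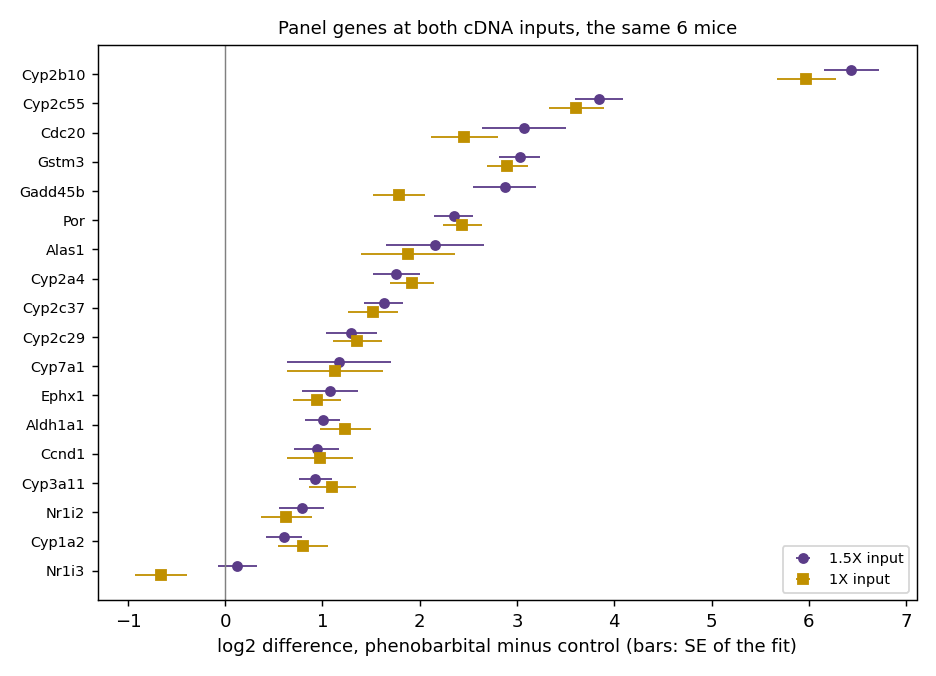
For 18 panel genes the points give the log2 difference, phenobarbital minus control, at 1.5X (circles) and 1X input (squares) in the same 6 mice, with the SE of the fit as bars. The Cyp2b10 and Cdc20 points rest on controls under the background call at 1.5X, in all 3 and in 2 of them, and Nr1i3 is the only gene shown whose points lie on opposite sides of 0.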

How the data were processed

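Arrays of 6 livers, 3 phenobarbital and 3 control mice, were analysed. Per the file headers, scanner images were read by the authors in Agilent Feature Extraction 11.0.1.1 with an mm9 design. The deposited processed signal is a background-subtracted intensity per spot, and the deposited spot flags (unit: other) mark outliers and signals well above background. The deposited intensity is not scaled between arrays, and the series matrix held equal values on all spots checked; 22 of its columns were not used. Arrays have no count depth.

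Outlier spots were dropped, replicate spots averaged, and log2 intensity was scaled to each array's 75th percentile taken over the probes called well above background in all 6 mice. Probes so called in all 3 mice of a group were tested with limma 3.58.1 (lmFit, eBayes; R 4.3.3), Benjamini-Hochberg threshold 0.05; all adjusted p-values are limma's. The fit was tested on simulated data. Symbols came from RefSeq accessions (27235 of 55681 probes). Where a gene has several tested probes, list counts and the panel use the brightest. Nr1i3, Alas1, Cyp3a11 and Ephx1 each had 2 tested probes, and only the brighter is given. Genes named were the 20 most raised, the lowered, a panel of 24, the most changed of each list, and the brightest probes measured in 1 group. Of the panel, Abcc4 and Meg3 had no tested probe, and Gsta1 and Ugt1a1 had no probe under these symbols. The arrays, gene lists and tests were chosen with earlier results of these data known. Figures used matplotlib 3.10.9. Alternatives are in the closing section.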

Additional observations from a re-analysis of the deposited data

How the results depend on the processing

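All 44 probes that passed kept their direction under the 17 alternatives in which they were tested, a direction that groups without overlap largely fix. The number that passed (44) was 185 after normexp and quantile normalization, 235 with an intensity trend in eBayes, 96 with probes well above background on all 6 arrays, 113 with dim values raised to the background call and 8 with no filter on dim probes. It was 58 with the percentile over all probes, 31 without scaling, 31 with 1 probe per gene name and 44 with the series matrix. With the slide row as a block it was 16, and leaving out 1 mouse gave 7 to 132; of the 44, 37 were lost at least once in this way and 8 in every case. Fewer mice or residual degrees of freedom are part of those 2 settings. The cause of the other changes was not tested. Among the 8 probes lost whichever mouse was left out were 1 each of Birc5, Incenp, Tsku, E430018J23Rik and Cyp2c37. The 2 raised probes on chr4:109071198-109078776 were also among them.

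Deviations from the group means correlated at 0.0727, 0.0239 and 0.159 between control and exposed mice of equal replicate number. For unequal numbers the correlations ran from -0.112 to 0.0505. These values do not settle whether the replicate numbers pair the mice. With the replicate number as a block 3 probes passed. For the difference between inputs 0 passed under all 10 alternatives, the replicate block among them.

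The difference in the share of probes well above background (-0.949 percentage points) ranged from -3.99 to 1.24 when 1 mouse was left out. Nr1i3 (0.12) turned to -0.013 without scaling, and to between -0.057 and 0.25 when 1 mouse was left out. Under background, signals give only bounds.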

Other observations

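Sex-biased and clock genes were also on the arrays, and except for Cyp3a44 none of those tested passed. Of genes expressed mainly in female liver 9 of 21 were tested, 4 of them only through the exposed mice, and the 5 measured on all 6 arrays had a median log2 difference of 0.24. Cyp17a1, which acts in steroid synthesis, was well above background in exposed mice only, at least 2.18-fold higher, and did not pass (limma adjusted p 0.242). Of genes expressed mainly in male liver 21 of 27 were tested, with a median of -0.13, and 6 were lower in every exposed mouse, beside 10.9% of all probes measured on all 6 arrays. Mup21, a major urinary protein, differed by -0.91 ± 0.17 (adjusted p 0.0899) and Hsd3b5, a steroid dehydrogenase, by -0.94 ± 0.26 (0.208). Major urinary proteins are close copies, so a probe can read several.

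Among 13 tested clock genes, the repressor Nr1d2 (REV-ERB beta) stood at -2.79, -2.62 and -2.31 in control mice 1, 2 and 3 and -1.28, -1.61 and -0.95 in phenobarbital mice 1, 2 and 3, and did not pass (log2 1.29 ± 0.23, adjusted p 0.0821). Nr1d1 (REV-ERB alpha) differed by 1.69 ± 0.35 (0.119), with 2 of 3 controls well above background. Neither gene overlapped between groups. Among the 9 clock genes measured on all 6 arrays, 1 was higher in every exposed mouse (9.09% of all probes) and 2 were lower (10.9%). The list's median over these 9 was -0.06.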
